A study of Mus musculus with 12 samples.

Results

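A set of 10 genes of TGF-β, activin and BMP signaling was followed across 12 mouse lung tumors, namely the ligands Tgfb1, Tgfb2, Tgfb3, Inhba and Bmp4, the receptors Tgfbr1, Tgfbr2, Tgfbr3 and Acvr1, and the inhibitor Smad7. They were found by symbol in the deposited count table, where they are 10 of 39017 genes. All 10 passed the filter on low counts, which kept 16527 genes. The set was chosen by name with earlier results of these same tumors known, so its values are given as a description and lend no independent support to any pattern. Tgfbr3, which encodes the co-receptor betaglycan, had lower levels on the doxycycline diet than on the regular diet in tumors with or without a floxed Glut1 gene. Inhba, which encodes the subunit of activin A, had higher levels. With edgeR and limma voom none of the 10 genes passed an adjusted p of 0.05 in any comparison. Each passed at most 0.0484% of all tested genes. DESeq2, which passed 0.237% to 2.31% of genes, passed Inhba with and without the floxed Glut1 gene. It passed Tgfbr3 with the floxed gene and not without it (DESeq2 adjusted p = 0.0606).

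TGF-β ligands are secreted in a latent complex, and once released they bring together a type II receptor, encoded by Tgfbr2, and a type I receptor, encoded by Tgfbr1, which phosphorylates Smad2 and Smad3. Activins and BMPs signal in the same way through related receptors, and BMP signals reach Smad1, Smad5 and Smad9 through type I receptors such as that encoded by Acvr1. In the lung these pathways are known for control of epithelial growth, of the alveolar type 1 and type 2 cell fates and of matrix production by fibroblasts, and in carcinomas TGF-β is known both as a brake on proliferation and as an inducer of mesenchymal traits.

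The tumors were CD45-negative fractions of lung adenocarcinomas in mice on a C57BL6/J background, all carrying floxed p53 (Fl/Fl) and the CCSP-rtTA transgene, and all given 6000 viral units per mouse of a lentivirus with Cre and a doxycycline-inducible dominant-negative PPARα (PPARaD13). KPG1 mice additionally carried Glut1 Fl/Fl, the floxed Slc2a1 gene for a glucose transporter, and KP mice did not. Mice in the KP_PPARaDN and KPG1_PPARaDN groups ate a diet with doxycycline at 625 mg/kg for 15 days, and those in the KP and KPG1 groups a regular diet, so induction of the transgene and exposure to doxycycline cannot be told apart. Tumors were taken 26 weeks after initiation, and each group held 3 tumors. CCSP-rtTA drives the PPARaD13 construct only in cells where the CCSP promoter of CCSP-rtTA is active. Which cells of these tumors those were was not tested.

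Each tumor's label holds a number before its tumor number, which is read here as the mouse, although the labels do not say so. On that reading the tumors came from 9 mice, 2 each for KP, KPG1 and KPG1_PPARaDN and 3 for KP_PPARaDN, some tumors of a group shared a mouse, and p-values over tumors are too small to that extent. The groups were also uneven in sex. KP held 3 tumors of females, KPG1 held 3 of males, KP_PPARaDN held 1 of a female and 2 of males, and KPG1_PPARaDN held 2 of females and 1 of a male. Total counts ran from 25263794 to 32654223 per tumor.

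The levels of Ppara and Slc2a1 did not follow the labels in every tumor. Ppara was at 15.7, 10.5 and 9.54 CPM (counts scaled to library size, after TMM) in KP, 2.71, 64.6 and 246 CPM in KP_PPARaDN, 7.24, 10.5 and 15.3 CPM in KPG1, and 8.90, 19.2 and 17.7 CPM in KPG1_PPARaDN. KP_PPARaDN replicate 1 thus lay below every regular-diet tumor, and whether reads of the transgene were counted as Ppara is not given in the sources used here. Slc2a1 was at 41.7, 35.3 and 57.7 CPM in KP and at 30.2, 64.0 and 39.9 CPM in KPG1, which overlap, and at 153, 115 and 108 CPM in KP_PPARaDN against 23.7, 53.2 and 54.5 CPM in KPG1_PPARaDN, which do not. The counts are per gene and do not single out the floxed part of Slc2a1. The study checked Glut1 deletion by real-time PCR on CD45-negative fractions and by staining. It also reports bile acid, fatty acid and peroxisome pathways as repressed with the construct in KP and KPG1 tumors. Directions are given for the libraries as labelled.

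Per exon length, in TPM, Bmp4 stood highest of the 10 genes, with a mean of 393 and a range of 215 to 558 over the 12 tumors. Its range did not overlap with that of Tgfbr1, which came next at a mean of 123 TPM (64.1 to 205). The ranges of Tgfbr1, Tgfbr2 (mean 70.0 TPM), Smad7 (57.0 TPM) and Acvr1 (43.1 TPM) overlapped from each to the next. Tgfb1 had the highest mean of the TGF-β ligands at 19.9 TPM (13.2 to 29.3), below every tumor's value of Acvr1. Tgfbr3 (14.3 TPM) and Tgfb3 (11.6 TPM) overlapped with Tgfb1 and with each other. Tgfb2 averaged 3.12 TPM and Inhba 1.14 TPM, and Inhba spread most, from 0.0791 to 3.15 TPM.

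**Figure D1:**
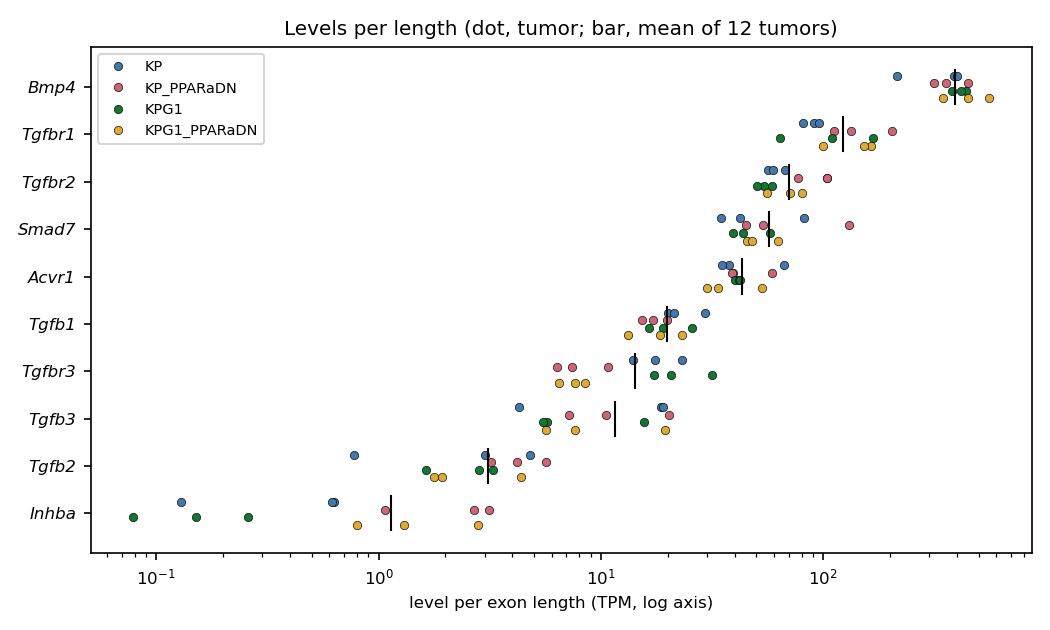
Level of each gene per exon length in TPM on a log axis, with 1 dot per tumor colored by group and a bar at the mean of the 12 tumors. Bmp4 lies above the other 9 genes, and for Tgfbr3 and Inhba the tumors on the doxycycline diet are set apart from those on the regular diet.

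Inhba (chr13:16011851-16031621, plus strand of mm10) encodes the βA subunit that forms activin A, a ligand that signals through the type I receptor encoded by Acvr1b. RefSeq's GRCm38.p6 (mm10) table of start sites holds promoters for 7 of the 10 genes, 8 promoters in all, and the stretch before the start of Inhba is shown because this ligand had the largest log2 fold change of the 10 genes in the averaged diet. It spans chr13:16011601-16011850 on the plus strand, the 250 bases before the start, and capitals mark a TATAAA match.

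Inhba: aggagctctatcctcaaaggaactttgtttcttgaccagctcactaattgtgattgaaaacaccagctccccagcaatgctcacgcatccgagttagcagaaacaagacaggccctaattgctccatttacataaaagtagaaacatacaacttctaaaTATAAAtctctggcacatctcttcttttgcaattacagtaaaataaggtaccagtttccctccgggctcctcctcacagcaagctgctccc

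TATAAA occurs on either strand in 12.4% of the 32851 promoters of this length, and of the members Tgfb2 holds it as well. AGGTCA, the hexamer that PPARs and related nuclear receptors bind, was in 0 of the members' 8 promoters on either strand and in 14.0% of all promoters. The Smad letters CAGACA, in 17.1% of all promoters, were found before Tgfb2 and before 1 of the 2 starts of Tgfbr1, and the AP-1 letters TGANTCA (6.75%) and the CRE letters TGACGTCA (1.55%) before none. A match is a run of letters and not a bound site, and no match says only that these letters are not in these windows.

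Inhba was at 1.16, 0.212 and 1.18 CPM in KP and at 5.62, 1.94 and 5.36 CPM in KP_PPARaDN. It was at 0.280, 0.172 and 0.496 CPM in KPG1 and at 2.32, 4.93 and 1.48 CPM in KPG1_PPARaDN. All 6 doxycycline tumors were above all 6 regular-diet tumors. The values rest on few reads, from 5 to 34 per regular-diet tumor and from 48 to 164 per doxycycline tumor. The fitted log2 fold change was 2.33 (SE 0.725, edgeR quasi-likelihood test, Benjamini-Hochberg adjusted p = 0.327) in KP and 3.18 (SE 0.767, adjusted p = 0.420) in KPG1, a 5.04-fold and a 9.07-fold difference.

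Averaged over both genotypes the log2 fold change of Inhba on doxycycline was 2.76 (SE 0.528, edgeR adjusted p = 0.160), and DESeq2 gave 2.77 with an adjusted p of 6.86e-05. DESeq2 also passed Inhba in KP (adjusted p = 0.0466) and in KPG1 (adjusted p = 0.00672). Among tumors of females Inhba lay between 0.212 and 1.18 CPM on the regular diet and between 1.48 and 2.32 CPM on doxycycline, and among tumors of males between 0.172 and 0.496 CPM and between 4.93 and 5.62 CPM. With sex as a covariate the log2 fold change in KP was 1.23 in place of 2.33, in KPG1 3.98 in place of 3.18 (edgeR adjusted p = 0.999), and 2.60 in place of 2.76 when averaged over genotypes. Taken per mouse on that reading of the labels, the 4 regular-diet mice reached at most 1.18 CPM and the 5 doxycycline mice started at 1.88 CPM.

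Tgfb1, Tgfb2 and Tgfb3 encode the TGF-β ligands themselves. Tgfb1 (chr7:25687002-25705077) was at 29.2, 37.8 and 32.1 CPM in KP, 24.3, 21.8 and 31.2 CPM in KP_PPARaDN, 24.0, 32.6 and 39.0 CPM in KPG1, and 25.8, 32.2 and 19.3 CPM in KPG1_PPARaDN. It was lower on average on doxycycline in both genotypes, with log2 fold changes of -0.36 (SE 0.255) in KP and -0.31 (SE 0.254) in KPG1, and the groups overlapped. The values of Tgfb1 were -0.65 and -0.04 with sex as a covariate, and without KPG1_PPARaDN replicate 3 the KPG1 value was -0.14. Tgfb1 varied least of the 3 ligands, 2.02-fold from the lowest to the highest tumor.

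Tgfb2 (chr1:186622792-186705989) ranged from 1.15 to 9.30 CPM and Tgfb3 (chr12:86056745-86079041) from 3.70 to 19.5 CPM. Both varied more between tumors of a group than between groups. In KP, for example, Tgfb3 was at 18.2, 3.70 and 19.3 CPM, and in KPG1_PPARaDN at 18.3, 7.11 and 5.54 CPM. KP replicate 2 was the lowest of the 12 tumors for Tgfb2, Tgfb3, Tgfbr2 and Bmp4, and for the summed markers of alveolar type 1, epithelial, mesothelial and erythroid cells. Without it the log2 fold change in KP was 0.74 for Tgfbr1, 0.57 for Tgfbr2, -1.32 for Tgfbr3 and 1.87 for Inhba.

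Bmp4 (chr14:46383520-46390669), a BMP ligand with roles in lung branching, was, of the 5 ligands of the set, the one at the highest level per length. Its means were 215 ± 79.5 CPM (SD, n = 3) in KP, 244 ± 44.8 CPM in KP_PPARaDN, 287 ± 45.9 CPM in KPG1 and 286 ± 67.8 CPM in KPG1_PPARaDN, with overlapping groups. The fitted log2 fold change was 0.18 (SE 0.297) on doxycycline in KP and -0.01 (SE 0.297) in KPG1. These values of Bmp4 were 0.49 and -0.34 with sex as a covariate, and without KP replicate 2 the KP value was -0.10.

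Tgfbr1 (chr4:47353222-47414931), the type I receptor for TGF-β, was at 153, 151 and 186 CPM in KP and at 374, 207 and 271 CPM in KP_PPARaDN. In KPG1 it was at 316, 244 and 126 CPM and in KPG1_PPARaDN at 183, 295 and 289 CPM. The groups did not overlap in KP, where all doxycycline tumors were higher, and they overlapped in KPG1. The log2 fold change was 0.80 (SE 0.333, edgeR adjusted p = 0.407) in KP and 0.16 (SE 0.331, adjusted p = 0.883) in KPG1. Tgfbr1 was at 0.45 and 0.48 with sex as a covariate, and without KPG1 replicate 3 the KPG1 value was -0.16.

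Tgfbr2 (chr9:116084293-116175360), the type II receptor that binds TGF-β first, was at 160, 118 and 146 CPM in KP and at 176, 242 and 265 CPM in KP_PPARaDN. In KPG1 it was at 127, 163 and 123 CPM and in KPG1_PPARaDN at 127, 182 and 169 CPM. As with Tgfbr1, all KP_PPARaDN tumors were above all KP tumors, and the KPG1 groups overlapped. The log2 fold change was 0.69 (SE 0.218, edgeR adjusted p = 0.327) in KP and 0.21 (SE 0.218, adjusted p = 0.750) in KPG1. The difference between the genotypes in this effect was -0.63 (SE 0.469, adjusted p = 0.604) for Tgfbr1 and -0.48 (SE 0.308, adjusted p = 0.535) for Tgfbr2, so the genotypes were not shown to differ. With sex as a covariate the difference was 0.03 for Tgfbr1 and -0.38 for Tgfbr2.

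Acvr1 (chr2:58388644-58567157) encodes a type I receptor for BMPs. It kept between 40.5 and 88.0 CPM with overlapping groups, and its log2 fold change was 0.07 (SE 0.285) in KP and -0.23 (SE 0.285) in KPG1. With sex as a covariate both signs of Acvr1 turned, to -0.30 and 0.10, and leaving out 1 tumor at a time gave -0.21 to 0.32 in KP.

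Tgfbr3 (chr5:107106570-107289629) encodes betaglycan, a co-receptor that presents TGF-β2 to the signaling receptors and, with inhibin, hinders activin signaling. It was at 44.0, 23.3 and 34.2 CPM in KP and at 13.5, 11.8 and 21.9 CPM in KP_PPARaDN. It was at 59.6, 46.3 and 33.9 CPM in KPG1 and at 14.0, 11.7 and 16.2 CPM in KPG1_PPARaDN. All 6 doxycycline tumors were below all 6 regular-diet tumors, with the closest pair KP_PPARaDN replicate 3 and KP replicate 2. The values rest on 364 to 1489 reads per tumor.

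The log2 fold change of Tgfbr3 was -1.10 (SE 0.318, edgeR adjusted p = 0.307) in KP and -1.74 (SE 0.324, adjusted p = 0.386) in KPG1, or 2.15-fold and 3.34-fold lower. The genotypes were not shown to differ in it (difference -0.64, SE 0.446, adjusted p = 0.580, and -0.87 to -0.33 with 1 tumor left out). Averaged over genotypes it was -1.42 (SE 0.227), with an adjusted p of 0.1002 in edgeR, 0.0907 in limma voom and 7.71e-06 in DESeq2. DESeq2 also passed Tgfbr3 in KPG1 (adjusted p = 0.000439) and not in KP (0.0606). Without KP_PPARaDN replicate 3 edgeR passed Tgfbr3 in the averaged comparison (log2 fold change -1.58, adjusted p = 0.0386). Without KP_PPARaDN replicate 1, the tumor with low Ppara, the value was -1.37 for Tgfbr3 and 2.64 for Inhba, close to those with it.

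The separation of Tgfbr3 by diet was also present within each sex. Tumors of females were at 23.3 to 44.0 CPM on the regular diet and 11.8 to 16.2 CPM on doxycycline, and tumors of males at 33.9 to 59.6 CPM and 11.7 to 21.9 CPM. Per mouse, as read from the labels, the values were 32.99 to 52.4 CPM in 4 regular-diet mice and 11.7 to 21.9 CPM in 5 doxycycline mice.

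Smad7, an inhibitory Smad that TGF-β itself induces and that blocks the type I receptor, was at 107, 48.9 and 46.9 CPM in KP and at 164, 68.5 and 63.3 CPM in KP_PPARaDN. It was at 51.4, 67.3 and 77.9 CPM in KPG1 and at 78.9, 56.8 and 62.5 CPM in KPG1_PPARaDN, and the groups overlapped in both genotypes. The log2 fold change of Smad7 in KP was 0.55 (SE 0.405). It was -0.04 without KP_PPARaDN replicate 1, the highest of the 12 tumors for Smad7, Tgfbr1 and Inhba, and 1.04 without KP replicate 1.

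**Figure D2:**
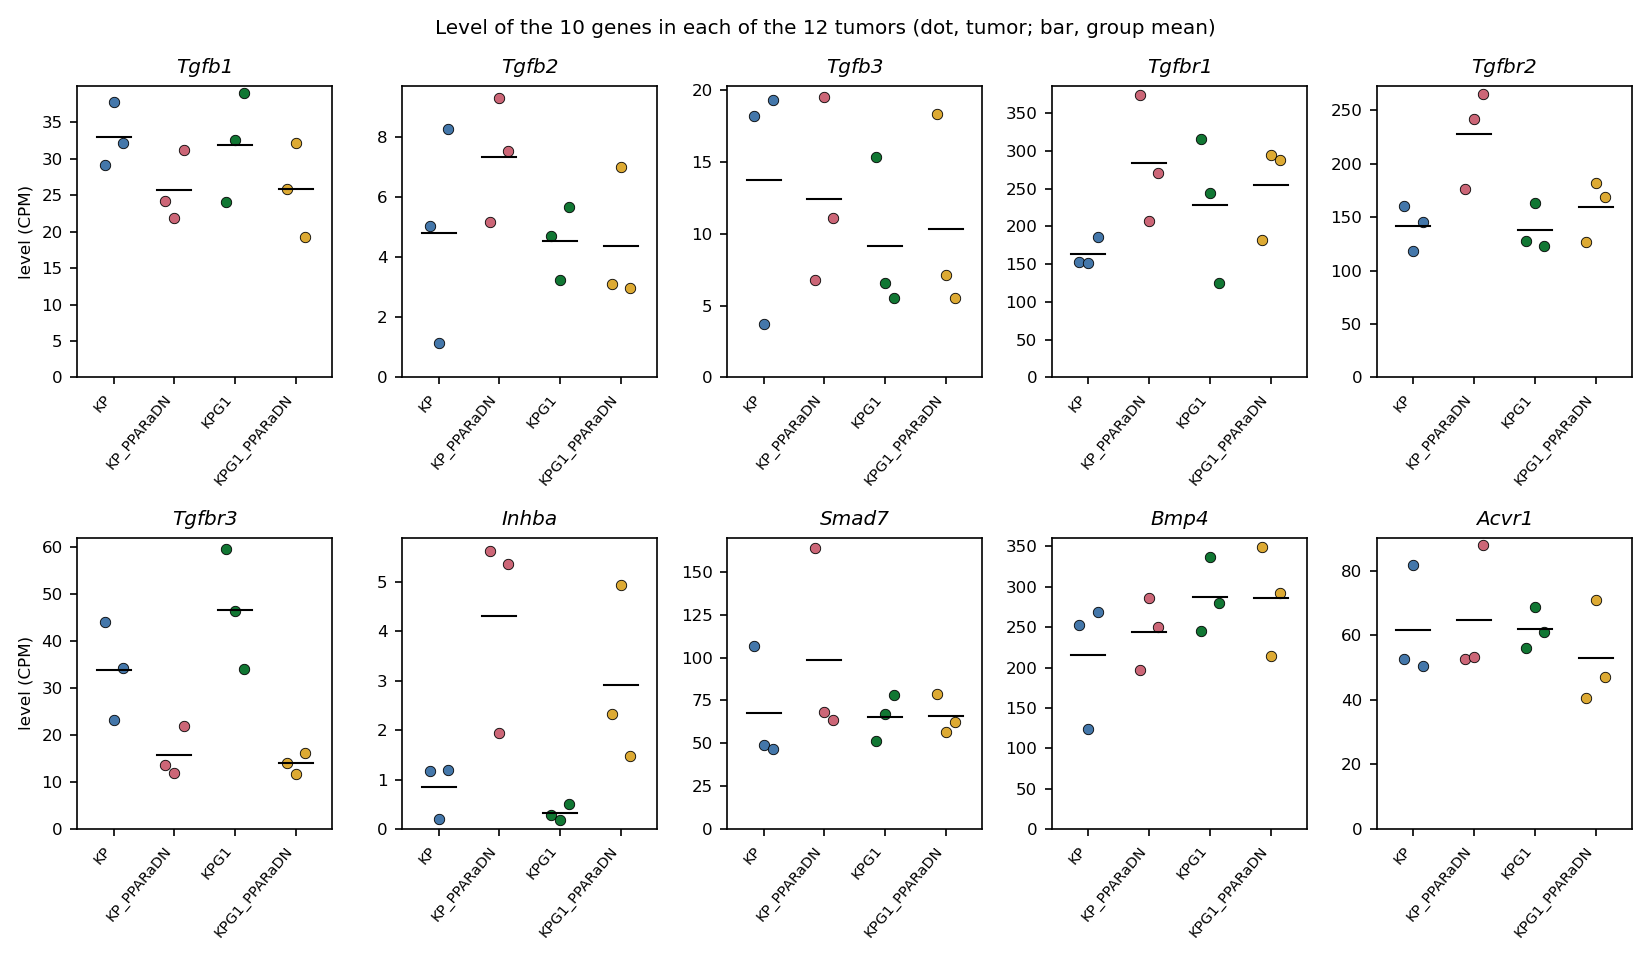
Level in CPM of each of the 10 genes in each tumor, grouped by the study's 4 groups of 3, with a bar at the group mean. For Tgfbr3 the 6 doxycycline tumors (11.7 to 21.9 CPM) lie below the 6 regular-diet tumors (23.3 to 59.6 CPM), and for Inhba above them.

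Over all members, 0 of 10 passed an edgeR adjusted p of 0.05 in each of the 5 comparisons. The share of all tested genes that passed was 0.00605% for KP_PPARaDN against KP and likewise 0.00605% for KPG1_PPARaDN against KPG1. It was 0% for the difference of the 2 effects, 0.0182% for the diet averaged over genotypes and 0.0484% for Slc2a1 floxed against wild type averaged over diets. At an unadjusted p under 0.05, 4 members in KP stood beside a background of 11.4%, and 2 members in KPG1 beside 10.8%. The difference of effects had 0 members (background 11.8%), the averaged diet 3 (10.1%) and the floxed allele 0 (4.53%).

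DESeq2 passed Inhba in KP, where it passed 2.31% of genes, and Inhba and Tgfbr3 in KPG1 (1.39% of genes) and in the averaged diet (1.79%). It passed 0 members in the difference of effects (1.74%) and for the floxed allele (0.237%). Limma voom passed 0 members in all 5 comparisons, beside 0.00605% of genes in KP, 0% in KPG1, 0% in the difference, 0.0182% in the averaged diet and 0.0484% for the floxed allele.

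By overlap of tumors, Tgfbr1, Tgfbr2 and Inhba were higher without overlap in KP, where 6.55% of all tested genes were, and Tgfbr3 was lower, where 6.70% were. In KPG1, Inhba was higher (11.2% of genes) and Tgfbr3 lower (9.41%). With 6 tumors against 6, Inhba was higher without overlap beside a background of 0.266% and Tgfbr3 lower beside 0.224%. The set was chosen with these data in view, so nothing about the set is read from these shares. No member separated the floxed from the wild-type tumors, for which the shares were 0.0968% higher and 0.0908% lower. The median log2 fold change of the members was 0.37 in KP and 0.0018 in KPG1, beside -0.0082 and 0.023 over all genes.

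**Figure D3:**
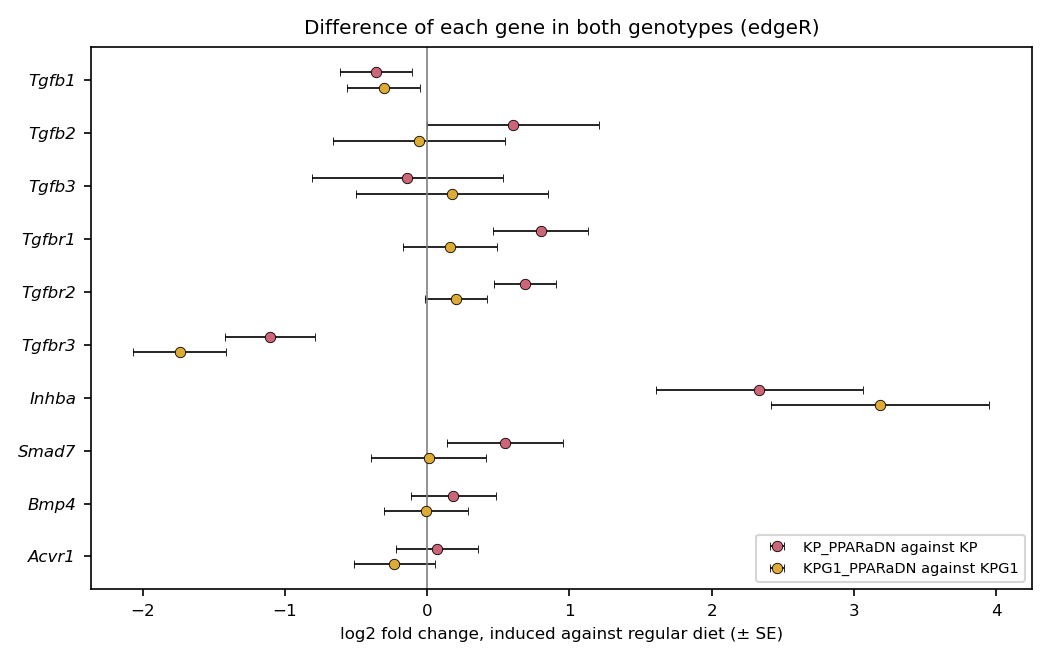
Fitted log2 fold change (edgeR) of each gene between the doxycycline-diet and the regular-diet group in KP and in KPG1, with bars of 1 SE. Tgfbr3 lies on the negative side and Inhba on the positive side in both genotypes, while Tgfbr1 and Tgfbr2 lie further from 0 in KP than in KPG1. With sex as a covariate, not plotted, Tgfbr1 is at 0.45 in KP and 0.48 in KPG1.

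For the floxed Slc2a1 allele 7 of the 10 members were lower and 0 passed in edgeR, DESeq2 or limma voom. Inhba had the largest value, -0.99 (SE 0.505, edgeR adjusted p = 0.976), and the median was -0.21 beside -0.014 over all genes. Bmp4 was at 0.32 (SE 0.210) and Tgfbr3 at 0.14 (SE 0.223).

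The rest of the pathway was read from a list of 116 genes, which includes the 10 members, of which 95 passed the filter on low counts. In every comparison 0 of the 95 passed in edgeR and 0 in limma voom. DESeq2 passed 5 in KP, 5 in KPG1, 2 in the difference of effects, 6 in the averaged diet and 0 for the floxed allele. Of all genes with a DESeq2 adjusted p, 2.31%, 1.39%, 1.74%, 1.79% and 0.237% passed in these comparisons, in the same order. By DESeq2, Inhba, Dcn and Nbl1 rose and Gdf11 and Inha fell in KP. In KPG1 Bmp7, Inhba and Atoh8 rose and Rgma and Tgfbr3 fell. In the averaged diet Bmp7, Inhba, Grem1 and Cdkn2b rose and Rgma and Tgfbr3 fell, and Inha and Bmp7 passed in the difference of effects. At an unadjusted p under 0.05 edgeR had 14 higher and 5 lower in KP, where the background over all tested genes was 11.4%, and 7 higher and 5 lower in KPG1, where it was 10.8%. In KP the median of the 95 was 0.22, and 61 were higher and 34 lower. In KPG1 the median was -0.032, with 45 higher and 50 lower.

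Among ligands outside the set, Bmp7, a BMP of epithelial tissue, was at 0.0800, 0.516 and 0.0991 CPM in KPG1 and at 31.5, 1.98 and 2.99 CPM in KPG1_PPARaDN. All KPG1_PPARaDN tumors were higher, replicate 1 most of all. In KP it was at 0.240, 1.85 and 0.244 CPM against 0.583, 0.549 and 1.98 CPM in KP_PPARaDN, which overlap. The log2 fold change of Bmp7 in KPG1 was 5.67 (SE 1.40, edgeR adjusted p = 0.420), and DESeq2 passed it there (adjusted p = 0.000390). Inhbb, which encodes the βB activin subunit, was lower in KPG1_PPARaDN than in KPG1 without overlap (log2 fold change -1.46, SE 0.673, edgeR adjusted p = 0.468). Inha, the inhibin subunit that binds betaglycan, was at 9.22 CPM in KP replicate 2 and at most at 1.5 CPM in any other tumor, so its log2 fold change of -6.03 in KP rests on that tumor.

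The lists of type I receptors, of type II receptors and of co-receptors held more lower than higher genes in both genotypes. Of 7 type I receptors 3 were higher and 4 lower in KP, and 1 was higher and 6 lower in KPG1, where Acvr1b, an activin receptor, was at 156, 169 and 117 CPM in KPG1 and 48.0, 74.9 and 95.8 CPM in KPG1_PPARaDN (log2 fold change -1.02, SE 0.317, edgeR adjusted p = 0.420). Acvr1b was thus lower without overlap in the same tumors in which Inhba was higher. All 4 tested co-receptors were lower in KPG1 and 3 of 4 in KP. With sex as a covariate 3 of 4 were lower in KPG1 and 4 of 4 in KP. Among them Rgma, a BMP co-receptor at 1.22 CPM on average, had a log2 fold change of -3.66 in KPG1 (SE 1.15, edgeR adjusted p = 0.420). Rgma was at 7.08, 0.792 and 0.430 CPM in KPG1, where replicate 1 stood apart, and at 0.171, 0.224 and 0.246 CPM in KPG1_PPARaDN.

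Of 17 genes that TGF-β is known to induce, among them the member Smad7, 16 were higher in KP_PPARaDN than in KP. Of all 16527 tested genes 8133 were higher. The median log2 fold change of the 17 was 0.55, the value of Smad7. Without KP replicate 2, 12 of 17 were higher with a median of 0.33, and with sex as a covariate 14 of 17 with a median of 0.43. Without KP_PPARaDN replicate 1 Smad7 was at -0.04, and the list was not counted in that setting. Ctgf, which encodes a matricellular protein, was at 55.6, 12.6 and 45.1 CPM in KP and at 121, 97.9 and 92.2 CPM in KP_PPARaDN, without overlap (1.46, SE 0.457, edgeR adjusted p = 0.327). Tgfbi was the exception at -0.23. In KPG1 7 of the 17 were higher and 10 lower, with a median of -0.042. Cdkn2b, a cell cycle inhibitor, was highest there at 0.76 (SE 0.262), without overlap. The difference of the effects was negative for 16 of the 17 (median -0.49), beside 0.028 over all genes, and 0 of these differences passed an edgeR adjusted p of 0.05. With sex as a covariate 12 of the 17 differences were negative.

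Extracellular antagonists, which bind ligands outside the cell, were higher for 8 of 10 in KP_PPARaDN, with a median of 1.31. Of the 10, 5 were higher without overlap between the groups, beside 6.55% of all tested genes. The highest log2 fold change of the list was that of Dcn, which encodes decorin of the matrix, at 3.05 (SE 1.06, edgeR adjusted p = 0.341), and its groups overlapped. Dcn was at 123 CPM in KP_PPARaDN replicate 1 against 10.8 and 4.79 CPM in the other tumors of that group, and at 5.20, 5.46 and 6.09 CPM in KP. In KPG1 5 of the 10 were higher and 5 lower, and Grem1, a BMP antagonist, was highest at 1.60 (SE 0.549, adjusted p = 0.420) without overlap.

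Genes that BMPs induce were higher for 9 of 10 in KPG1 (median 0.39) and for 5 of 10 in KP (median 0.038). With sex as a covariate it was 8 of 10 in KPG1 (median 0.24) and 7 of 10 in KP (median 0.32). Bambi, a decoy receptor that blocks TGF-β and BMP receptors, was at 74.7, 91.0 and 45.2 CPM in KP and 31.8, 27.3 and 39.3 CPM in KP_PPARaDN, lower without overlap (-1.10, SE 0.308, edgeR adjusted p = 0.305), and its groups overlapped in KPG1. In the latency and activation list, 11 of 13 genes were higher in KP (7 of 13 without KP replicate 2), where Itgb6, an integrin subunit that activates latent TGF-β, was at 1.29 (SE 0.615) with overlap, and 4 of 13 were higher in KPG1, where Ltbp3, a latent TGF-β binding protein, was at -1.06 (SE 0.429) without overlap. In KPG1 Itgb6 was at 27.2, 47.6 and 34.7 CPM against 79.9, 58.8 and 53.2 CPM in KPG1_PPARaDN, higher without overlap (0.81, SE 0.609, edgeR adjusted p = 0.664).

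Each of the lists not yet counted held genes in both directions. The 9 tested TGF-β and activin-type ligands had 4 higher in KP and 5 in KPG1, and the 13 BMP-type ligands 10 and 7. Of 5 type II receptors 1 was higher and 4 lower in KP, and 2 were higher and 3 lower in KPG1. With sex as a covariate 3 of the 5 were higher in KPG1. Of the 6 Smads that carry the signal 3 were higher in KP and 4 in KPG1, and of 10 intracellular inhibitors 5 and 6, among them Smurf1, a ubiquitin ligase that acts on Smads and receptors, at 0.68 (SE 0.262) in KP and -0.34 (SE 0.261) in KPG1 with overlapping groups.

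**Figure D4:**
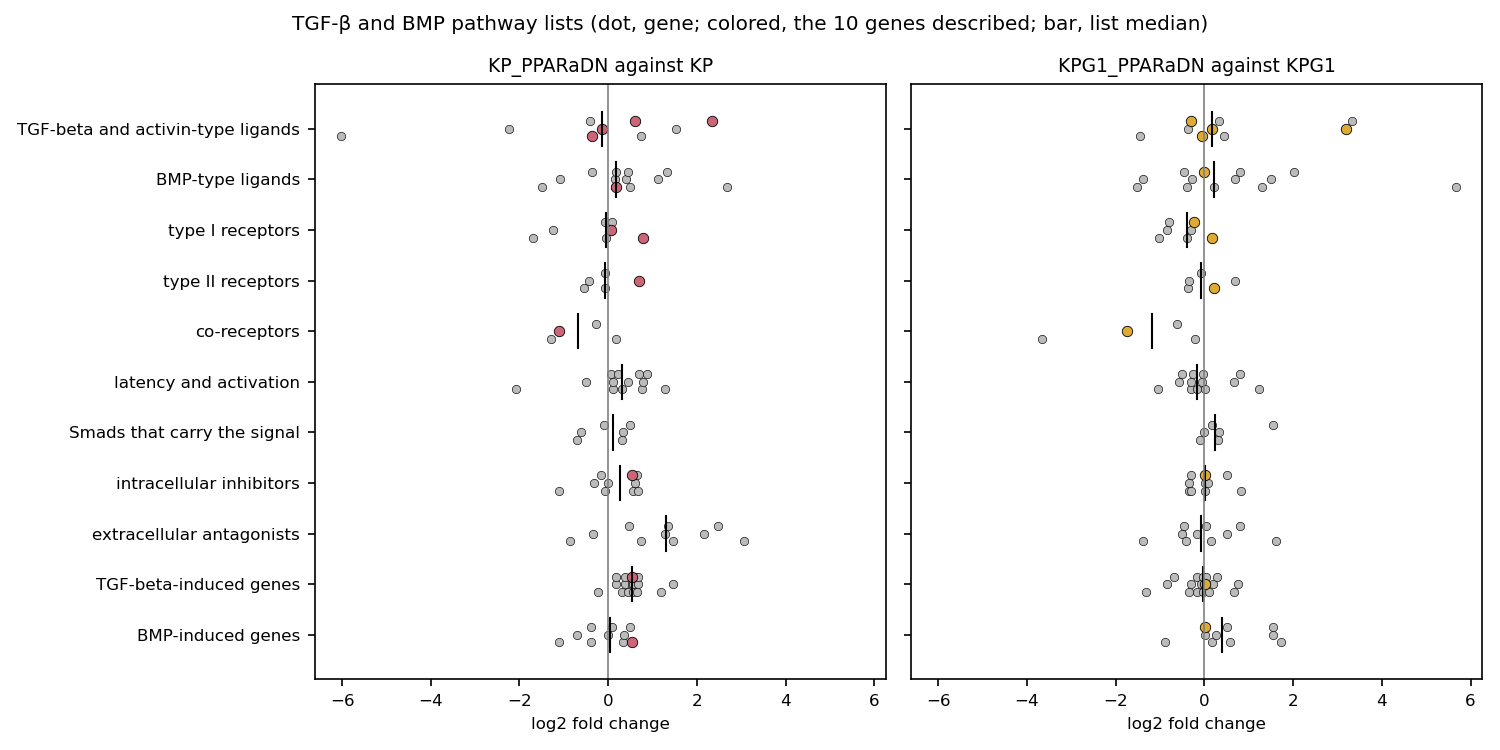
Log2 fold change (edgeR) of each tested gene of 11 pathway lists in KP (left) and KPG1 (right), with the described genes colored and a bar at each list's median. The TGF-β-induced genes have a median of 0.55 in KP and -0.042 in KPG1, and the extracellular antagonists 1.31 and -0.069.

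These are bulk fractions, so fewer cells of a type and less RNA per cell cannot be told apart. Markers of other cell types were summed in each tumor. The 6 fibroblast markers, led by Col1a2, summed to 133, 113 and 241 CPM in KP and to 410, 529 and 266 CPM in KP_PPARaDN, without overlap and with 5 of 6 genes higher. They summed to 354, 85.1 and 224 CPM in KPG1 and 170, 127 and 183 CPM in KPG1_PPARaDN. Col1a1, Col1a2 and Col3a1 did not overlap between KP and KP_PPARaDN, and Dcn, Lum and Pdgfra did. The fibroblast sum thus moved with Tgfbr1, Tgfbr2, the TGF-β-induced genes and the antagonists in KP. Col1a1 is also in the list of TGF-β-induced genes, and Dcn in that of the antagonists. The part of the fibroblast markers in those values was not tested.

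Mesothelial markers, 4 genes led by Msln, summed to 37.5, 2.94 and 43.1 CPM in KP and 159, 245 and 295 CPM in KP_PPARaDN, again without overlap, and to 54.4, 94.7 and 15.2 CPM in KPG1 against 6.69, 61.8 and 31.4 CPM in KPG1_PPARaDN. Of the 4 markers 3 averaged under 1 CPM, so these sums are nearly those of Msln alone (158, 242 and 294 CPM in KP_PPARaDN). The part of the mesothelial markers in the KP values was not tested either.

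Endothelial markers, 8 genes led by Vwf, summed to 484, 237 and 401 CPM in KP, 149, 244 and 825 CPM in KP_PPARaDN, 501, 186 and 432 CPM in KPG1 and 240, 179 and 271 CPM in KPG1_PPARaDN. The diets overlapped, and the tumor with the highest sum, KP_PPARaDN replicate 3, had the highest Tgfbr3 of the doxycycline tumors. All 8 markers had a negative log2 fold change in KPG1, and in KP 6 of 8 had a positive one, or 2 of 8 without KP replicate 2. The part of the endothelial markers in the values of Tgfbr3 was not tested.

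Alveolar type 2 markers, 7 genes led by Sftpc, summed to 46351, 26911 and 56912 CPM in KP and to 22726, 25276 and 57400 CPM in KP_PPARaDN, which overlapped, with 6 of 7 markers lower. They summed to 45782, 73448 and 64315 CPM in KPG1 and to 24625, 33378 and 38916 CPM in KPG1_PPARaDN, lower without overlap. Alveolar type 1 markers, 6 genes led by Ager, were likewise lower without overlap in KPG1, from 1784 to 2719 CPM against 664 to 1308 CPM. In KP they summed to 2373, 185 and 2205 CPM and in KP_PPARaDN to 1693, 2071 and 3464 CPM, and KP replicate 2 was the lowest of the 12 tumors. All 6 had a positive log2 fold change in KP, and 3 of 6 without KP replicate 2. Both alveolar sums thus moved with Tgfbr3 in KPG1. In KP the type 2 sum was lowest in KP replicate 2, the lowest KP tumor for Tgfbr3, and within KP_PPARaDN it was highest in replicate 3, as was Tgfbr3. The part of the alveolar markers in the values of Tgfbr3 was not tested in either genotype.

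Epithelial markers were abundant in all tumors, with Krt18 at 1201 CPM on average. Their sum was 4307, 2353 and 4154 CPM in KP and 6385, 4186 and 5732 CPM in KP_PPARaDN, with overlap. All 6 markers were higher in KP_PPARaDN by the fitted log2 fold change (median 0.55), and 0 passed the edgeR test. Krt19 (162 to 416 CPM in KP, 494 to 695 CPM in KP_PPARaDN) and Cldn4 (30.5 to 112 CPM against 167 to 332 CPM) did not overlap. In KPG1 the sum was 3658, 5013 and 2991 CPM against 4040, 3142 and 4546 CPM, with overlap. The part of the epithelial markers in the KP values of Tgfbr1, Tgfbr2 and the genes that TGF-β induces was not tested.

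Erythroid markers, 6 genes led by Hbb-bs, of which 5 passed the filter on low counts, summed to 583, 319 and 765 CPM in KP and to 1320, 850 and 904 CPM in KP_PPARaDN, higher without overlap, as were Inhba, Tgfbr1 and Tgfbr2. In KPG1 they summed to 887, 629 and 962 CPM against 1421, 760 and 731 CPM in KPG1_PPARaDN, with overlap. Of the 5 tested, 4 had a positive and 1 a negative log2 fold change in KP, and likewise in KPG1. Hbb-bt averaged 282 CPM in KP and 257 CPM in KP_PPARaDN, and 494 CPM in KPG1 and 298 CPM in KPG1_PPARaDN, with overlap in both genotypes. Hba-a2, an alpha globin gene, was the 1 marker past the edgeR test, at 0.240, 0.103 and 0.529 CPM in KPG1 and 122, 29.1 and 37.1 CPM in KPG1_PPARaDN. Its log2 fold change was 7.72 (SE 0.784, edgeR adjusted p = 0.0105) in KPG1 and 4.62 (SE 0.478, adjusted p = 0.00429) in the averaged diet, and reads of Hba-a2 and its near-identical copy Hba-a1 may be split between them. The part of the erythroid markers in the values of the members was not tested.

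Leukocyte markers summed to between 35.8 and 98.6 CPM, with 3 of 8 averaging under 1 CPM, in fractions from which CD45-positive cells had been removed. Smooth muscle and pericyte markers (41.2 to 328 CPM), platelet markers (15.5 to 145 CPM), club cell markers (30.7 to 376 CPM) and ciliated cell markers (11.3 to 48.8 CPM) overlapped between the diets. No listed marker was at 0 in all 12 tumors.

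**Figure D5:**
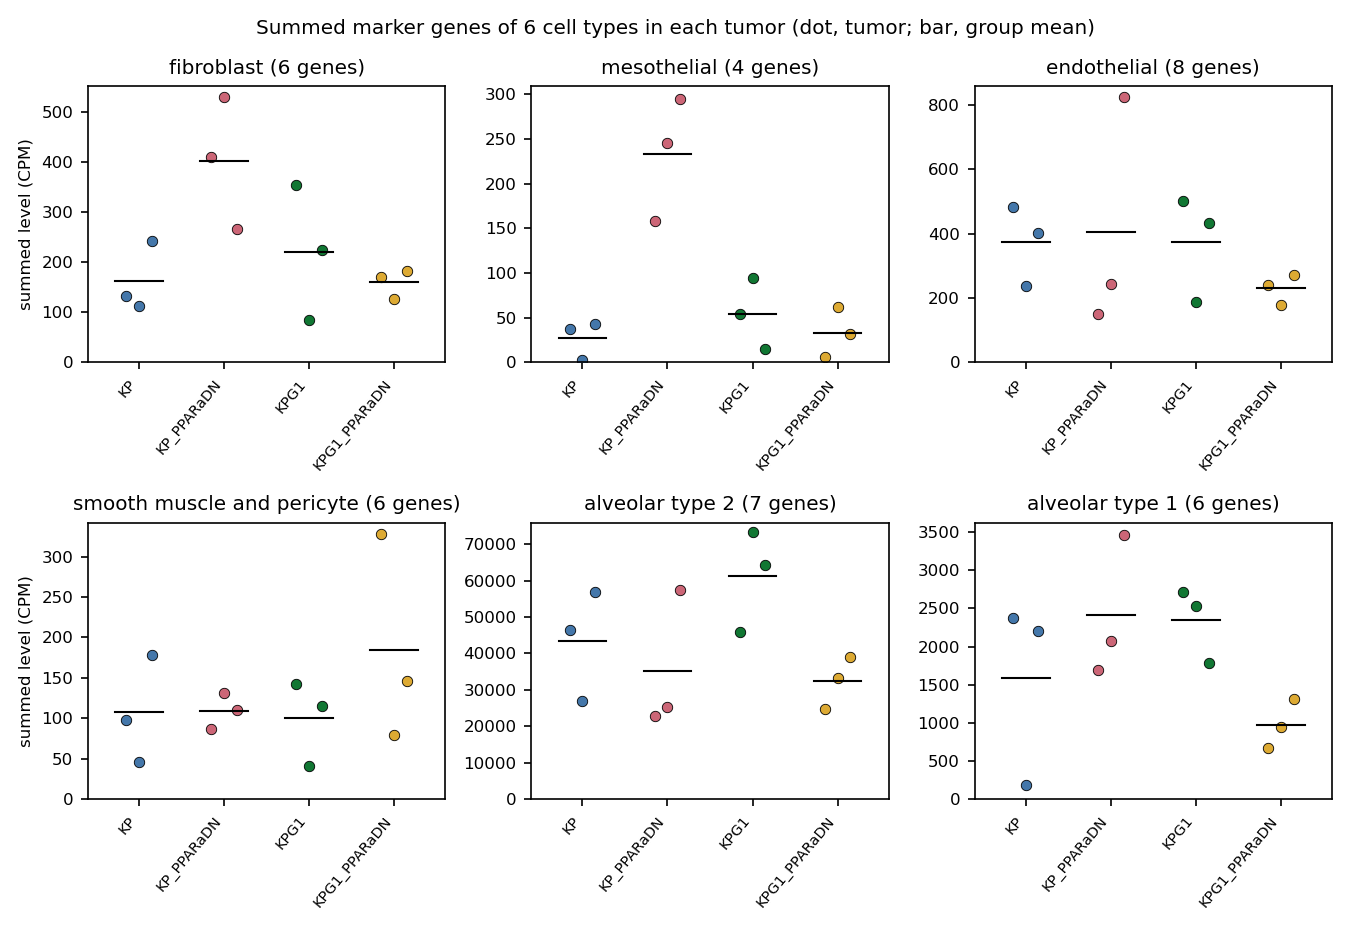
Summed CPM of marker genes of 6 cell types in each tumor, with a bar at the group mean. Fibroblast and mesothelial sums are higher in all KP_PPARaDN tumors than in all KP tumors, and both alveolar sums are lower in all KPG1_PPARaDN tumors than in all KPG1 tumors. The mesothelial sum is nearly that of Msln alone.

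The genes whose log2 CPM followed each member most closely over the 12 tumors were named from 14108 genes at 1 CPM or more on average, as a description and with no p, since the tumors share groups, diet and possibly mice. For Tgfbr3 they were Maf1, a repressor of RNA polymerase III, Lrrk2, a kinase, and Hltf, a helicase-like factor, with Pearson r of 0.947, 0.947 and 0.925. For Inhba they were Map4, a microtubule-associated protein (0.897), Fam132b, which encodes erythroferrone (0.873), and Acsbg1, an enzyme that activates long-chain fatty acids (0.861). Tgfbr1 came nearest to Arhgef5 (0.884), Mmp13 (0.875) and Trbc2 (0.856), and Tgfbr2 to Hsf2bp (0.919), Dpcr1 (0.912) and Il1rn (0.909). Tgfb1 came nearest to Zfp3 (0.817), Ccdc157 (0.813) and Fam178b (0.808), the weakest matches of the 10 members. Tgfb2 came nearest to Dkk2, a modulator of Wnt signaling (0.890), Mfsd2a (0.880) and Akap5 (0.877), and Tgfb3 to Tsc22d2 (0.914), Krt79 (0.901) and 4933436C20Rik (0.862). Smad7 came nearest to Ercc3 (0.928), Napg (0.923) and Epg5 (0.921). Bmp4 followed Cgn, which encodes the tight junction protein cingulin (0.928), Myh14 (0.921) and Nedd8 (0.917), and Acvr1 followed Snd1 (0.900), Serinc3 (0.896) and Stk35 (0.891). Among the members themselves, Tgfbr3 and Inhba had r = -0.72 and Tgfbr2 and Inhba 0.63.

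Reads of some members cannot be told apart from those of overlapping genes, since the strand setting of the counting is not given in the sources used here. In GENCODE M21 Inhba overlaps the antisense gene Gm48444 and the pseudogene B230303A05Rik, Tgfb2 Gm26169 and Gm29491, Tgfb3 the genes Ttll5, Gm37804 and Gm48008, Bmp4 Gm15217 and Gm15222, and Acvr1 Gm17409. Tgfbr3 overlaps the pseudogene Gm8145 on the other strand and 3 unverified transcripts on its own.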

How the data were processed

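RNA of 12 CD45-negative fractions was sequenced by the study (TruSeq stranded mRNA kit, single-end reads). Per the submitters' processing notes and the study's methods, the authors used cutadapt for trimming, HISAT2 for alignment (mm10) and featureCounts 1.4.4 for counting. The deposited values used here are the raw counts per gene, and a deposited log2 table was not used. The annotation release is not given in the sources used here. The 12 files per tumor equalled the combined table.

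All 12 tumors entered 1 fit with edgeR 4.0.16 (TMM, filterByExpr, quasi-likelihood test, 8 residual degrees of freedom, Benjamini-Hochberg over 16527 genes, threshold 0.05), run under R 4.3.3. TPM used exon lengths of GENCODE M21, which held 96.4% of the gene identifiers. The biological coefficient of variation was 0.440. Alternatives were DESeq2 1.42.0, limma 3.58.1 (voom), another normalization, no filter, sex, a block, summing by mouse and leaving out each tumor. Counts over the lists with sex as a covariate and without KP replicate 2 were chosen after seeing the data. The scripts were tested on simulated data. Intervals and p-values cover only the spread between these tumors, some of which may share a mouse.

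The members, the pathway and marker lists and the rule for named genes were chosen with earlier results of these data known. The rule named all members, of each pathway list the genes past the threshold and the lowest and highest log2 fold change at 1 CPM or more in both diet comparisons, of each marker list the most abundant gene, and the 3 genes most like each member. Col1a1, Col3a1, Lum, Pdgfra, Krt19, Cldn4, Hba-a2, Hbb-bt, and Gdf11, Nbl1 and Atoh8 (passed by DESeq2), were named after their values were seen. An allele that all the mice carried and a gene that the rule named are not reported here.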

Additional observations from a re-analysis of the deposited data

How the results depend on the processing

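With DESeq2 in place of edgeR, 372 genes in KP, 211 in KPG1, 286 in the difference of effects, 288 in the averaged diet and 39 for the floxed allele passed an adjusted p of 0.05, in place of 1, 1, 0, 3 and 8, and 1, 2 and 2 members passed in KP, KPG1 and the averaged diet in place of 0. Limma voom gave 0 genes in KPG1. With no filter on low counts 2 genes passed in KP and 5 in the averaged diet, and with sex as a covariate 0 in KP. With tumors read from the labels as of the same mouse summed, 0 passed in KP, 0 in KPG1 and 3 for the floxed allele.

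With the replicate number as a block, 0 genes passed in KP, 2 in KPG1 and 5 for the floxed allele, and no member passed. Tumors of the same number did not deviate together (r from -0.19 to 0.13), so the numbers do not pair the tumors.

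Leaving out each tumor in turn gave 0 to 1 genes in KP, 0 to 2 in KPG1, 2 to 13 in the averaged diet and 6 to 11 for the floxed allele. The 13 came without KP_PPARaDN replicate 3, where 1 member (Tgfbr3) passed in the averaged diet in place of 0. Leaving out any of the other tumors gave 0 members in each comparison. Leaving out any tumor kept Tgfbr3 between -1.42 and -0.87 in KP and between -1.96 and -1.53 in KPG1, and Inhba between 1.87 and 2.68 and between 2.57 and 3.64.

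Of 950 log2 fold changes of members under these alternatives, 934 stayed within 1 SD between tumors, 10 moved further and 6 passed the threshold. The sign differed from the main value in 58, and 6 of these had also moved by over 1 SD. Of the 10, 8 came with sex as a covariate, which is unevenly spread over the groups, and 2 were Smad7 without KP_PPARaDN replicate 1. Groups of 3 tumors and the 5 to 34 reads of Inhba per regular-diet tumor limit the precision.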
